A study of Rattus norvegicus with 4 samples.

Results

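The forkhead genes Foxa1, Foxa2, Foxa3, Foxc1, Foxc2, Foxd3, Foxf2, Foxk2, Foxp1 and Foxq1 were examined in neonatal rat cardiomyocytes that overexpressed atrogin-1. They were listed by name, and every probe set paired with a listed symbol was used, which gave 20 of 31042 probe sets and 9 of 14217 measured genes. Foxf2 was paired with no probe set in the table used and was not analysed here. The genes were chosen by their family and by the log2 difference between the groups on these same arrays, with Foxa2 known to be low, so their values and calls are a description and not a test.

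Cardiomyocytes were isolated by enzymatic digestion of ventricular myocardium from Sprague-Dawley rats 1 to 2 days old and were infected for 24 hours in serum-free medium. The control group received an adenovirus that expresses GFP alone (Ad-GFP, 2 arrays) and the other an adenovirus that expresses atrogin-1 and GFP (Ad-atrogin-1, 2 arrays), so GFP and viral infection are common to both. The labels describe the arrays as biological replicates. The values are log2 signals of Affymetrix rat genome arrays, and n is 2 arrays per group throughout. Nothing given here ties each array to its own cell preparation, so the errors are not read as a spread between preparations. An SD is the spread of the arrays of a group. Standard errors and intervals are those of the limma fit, which draws the variance of each probe set towards that of all probe sets.

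Forkhead proteins are transcription factors that share a winged-helix DNA-binding domain. The Foxa factors open closed chromatin and specify endoderm, liver, pancreas and lung. Foxc1 and Foxc2 act in mesenchyme, vessels and the outflow tract of the heart, Foxp1 in the growth of the developing myocardium, and Foxd3 in the neural crest. Heart muscle is not a classical site of Foxa expression, and atrogin-1 is better known for its link to another forkhead branch, the FoxO factors.

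Foxa2 fell in Ad-atrogin-1 cardiomyocytes, and it was the only one of the 9 measured genes that passed the call thresholds. Foxk2 was slightly higher and Foxp1 slightly lower at every probe set that lay above the lower quartile of the arrays, without passing. Foxa1 and Foxa3, the closest relatives of Foxa2, had differences near 0. A call needs an adjusted p under 0.05 from limma, a moderated test fitted over all probe sets, and a change of at least 2-fold. Of the 20 probe sets 1 was called, against 0.274% of all probe sets (85 of 31042), with 0.248% called higher and 0.0258% called lower. At gene level 1 of 9 was called, against 0.513% of all genes (73 of 14217), with 0.457% higher and 0.0563% lower.

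The promoters of Foxa2, Foxp1 and Foxk2 are shown because these are the members with the largest differences. Each sequence holds the 250 bases before the RefSeq start (build GRCr8), 5′ to 3′ on the strand of the gene, and capitals mark matches to the forkhead core. Foxa2 lies on the minus strand (chr3:155927509-155927758), Foxp1 on the minus strand (chr4:133353281-133353530) and Foxk2 on the plus strand (chr10:107040683-107040932).
Foxa2: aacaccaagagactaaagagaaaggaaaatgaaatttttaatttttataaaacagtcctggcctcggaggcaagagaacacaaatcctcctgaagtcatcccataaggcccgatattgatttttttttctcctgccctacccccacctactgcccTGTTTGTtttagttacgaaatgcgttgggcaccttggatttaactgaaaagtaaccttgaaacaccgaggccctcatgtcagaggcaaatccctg
Foxp1: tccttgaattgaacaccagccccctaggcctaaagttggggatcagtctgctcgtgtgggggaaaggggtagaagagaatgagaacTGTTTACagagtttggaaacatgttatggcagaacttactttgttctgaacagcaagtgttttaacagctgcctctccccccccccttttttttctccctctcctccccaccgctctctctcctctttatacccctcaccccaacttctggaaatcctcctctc
Foxk2: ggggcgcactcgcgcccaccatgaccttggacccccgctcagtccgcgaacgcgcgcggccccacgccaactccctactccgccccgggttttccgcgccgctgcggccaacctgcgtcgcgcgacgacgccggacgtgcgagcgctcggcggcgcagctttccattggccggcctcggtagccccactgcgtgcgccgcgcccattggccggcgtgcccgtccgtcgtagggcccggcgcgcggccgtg

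The forkhead core was searched on both strands in 8 spellings. The first was TGTTTAC, the next spelling searched was TGTTTAT, then the spelling written TGTTTGC was searched, followed by the spelling TGTTTGT. The other spellings searched began with the form TATTTAC, after which came the form TATTTAT, then the form written TATTTGC and finally the form TATTTGT. All are single words of the same length that differ from each other in few letters. Foxa2 holds TGTTTGT with its first base 95 bases before the start, and Foxp1 holds TGTTTAC 164 bases before it. Foxq1 holds ACAAACA, the reverse complement of TGTTTGT, 202 bases before its start. In all, 3 of 9 member promoters hold a match, and 25.7% of 33469 promoters of the same length do. A match is a description of the letters, and binding was not measured. RefSeq promoters were matched for 8 of the 10 genes, with a pair of starts for Foxk2, of which the first is shown. The GC content was 42.8% in Foxa2, 49.6% in Foxp1 and 76.8% in Foxk2, beside a median of 51.2% over all promoters.

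The log2 signal of Foxa2 was 6.05 and 5.92 on the Ad-GFP arrays and 3.47 and 3.72 on the Ad-atrogin-1 arrays. The groups did not overlap, and they lay much farther apart than the arrays within either of them. The Ad-GFP mean was 5.99 ± 0.09 (SD, n = 2) and the Ad-atrogin-1 mean 3.60 ± 0.18 (SD, n = 2), a log2 difference of -2.39 (standard error 0.14), or 5.25-fold lower. This was the lowest difference of all 31042 probe sets. Both Ad-atrogin-1 signals lay under the lower quartile of their arrays, which was 3.88 to 3.94 over the 4 arrays, while the Ad-GFP signals lay above it. No background level was estimated, so the fold change is not an exact size. Foxa2 has 1 probe set, and no second probe set could be set beside it. In these bulk samples, fewer cells with Foxa2 RNA and less Foxa2 RNA per cell cannot be told apart. Without any 1 array Foxa2 did not pass, although its difference stayed between -2.52 and -2.27, and it did not pass with the replicate number as a block (-2.39).

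Foxa1, which acts beside Foxa2 in endoderm and in hormone-responsive epithelia, had log2 signals of 2.558 and 2.523 in Ad-GFP and 2.496 and 2.571 in Ad-atrogin-1. All 4 lay under the lower quartile of the arrays. Its log2 difference was -0.01, with a 95% interval of the fit from -0.29 to 0.28. Foxa3, the Foxa factor of adult liver and gut, had log2 signals of 3.92 and 3.96 in Ad-GFP and 3.83 and 4.00 in Ad-atrogin-1. The groups overlapped, and the log2 difference was -0.02 (95% interval -0.33 to 0.29). Both intervals lie within a change of 2-fold on the array scale, and the signals behind them are at or under the lower quartile or close above it.

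**Figure D1:**
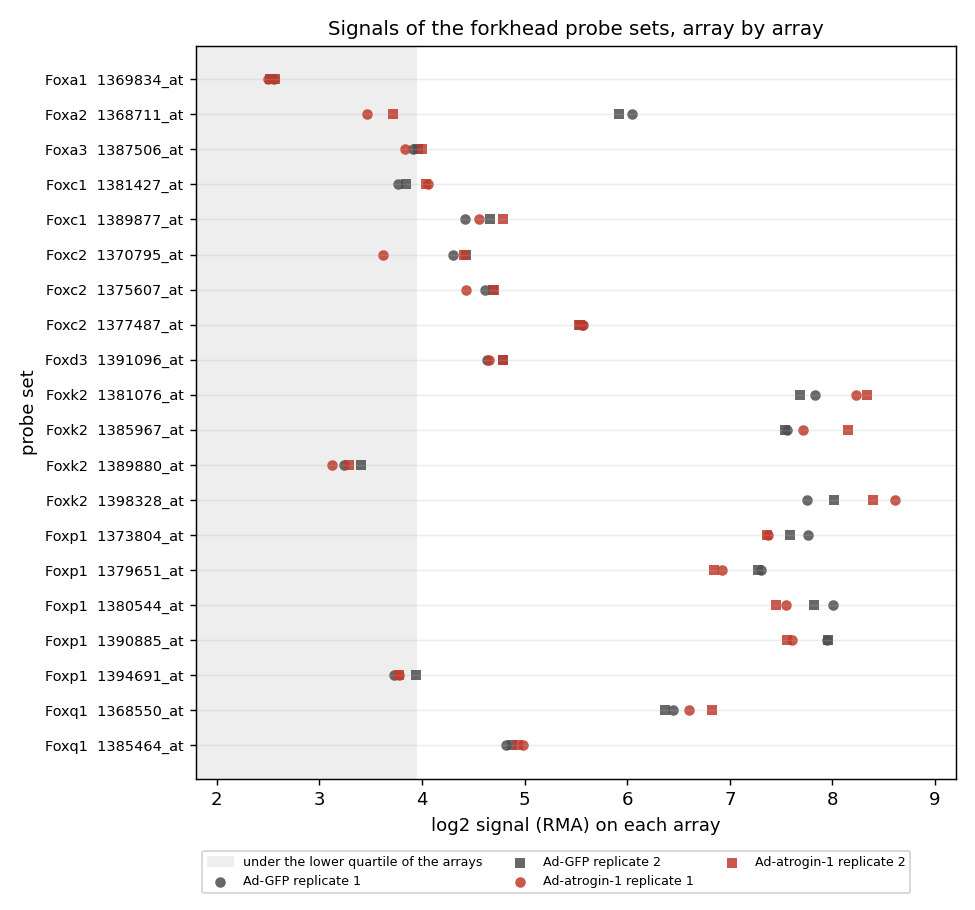
Log2 signal (RMA, horizontal axis) of each of the 20 forkhead probe sets (rows) on each array, with Ad-GFP in grey and Ad-atrogin-1 in red (circle, replicate 1; square, replicate 2) and the range under the lower quartile of the arrays shaded. The Foxa2 points of the groups lie apart, at 5.92 and 6.05 in Ad-GFP and at 3.47 and 3.72 in Ad-atrogin-1, and no other row shows such a distance.

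Foxk2 and Foxp1 were each measured by several probe sets, which share a target and are not replicates of the infection. Foxk2 encodes a widely expressed repressor that acts in metabolism and in the control of autophagy genes. At probe set 1398328_at its log2 signals were 7.75 and 8.02 in Ad-GFP and 8.61 and 8.39 in Ad-atrogin-1, a log2 difference of 0.62 (standard error 0.15). The groups did not overlap, with Ad-atrogin-1 higher. At 1381076_at the signals were 7.83 and 7.69 against 8.23 and 8.34, a log2 difference of 0.53 (standard error 0.12). At 1385967_at they were 7.56 and 7.53 against 7.71 and 8.15, a log2 difference of 0.39 (standard error 0.17). The groups lay apart at these 3 probe sets, in the same direction, and none passed. The fourth Foxk2 probe set, 1389880_at, lay under the lower quartile on all arrays, and its groups overlapped (-0.12, standard error 0.13). RefSeq lists 2 Foxk2 pseudogenes in the rat, and whether their RNA adds to these signals was not tested.

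Foxp1, a repressor that shapes the proliferation of embryonic cardiomyocytes and is also active in blood cells and neurons, went the other way in 4 of its 5 probe sets. At 1390885_at its log2 signals were 7.95 and 7.96 in Ad-GFP and 7.60 and 7.56 in Ad-atrogin-1, a log2 difference of -0.37 (standard error 0.11). At 1379651_at they were 7.30 and 7.28 against 6.93 and 6.84, a log2 difference of -0.40 (standard error 0.12). The groups lay apart at these and at the probe sets 1380544_at (-0.42) and 1373804_at (-0.30), each time with Ad-atrogin-1 lower, and none passed. The fifth, 1394691_at, lay under the lower quartile on all arrays and had a log2 difference of -0.06. The largest of these Foxp1 differences is 1.33-fold, well under the 2-fold that a call needs.

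Foxq1, a factor of epithelia and of hair and stomach differentiation, had log2 signals of 6.44 and 6.37 in Ad-GFP and 6.60 and 6.83 in Ad-atrogin-1 at 1368550_at. Its log2 difference there was 0.31 (standard error 0.13) and at 1385464_at 0.11 (standard error 0.11). The groups lay apart at both probe sets, and neither passed. Foxc1, which with Foxc2 patterns mesenchyme, vessels and the outflow tract, had log2 signals of 3.76 and 3.84 in Ad-GFP and 4.06 and 4.04 in Ad-atrogin-1 at 1381427_at. The Ad-GFP signals lay below the lower quartile, and the log2 difference was 0.25 (standard error 0.11). At 1389877_at the groups overlapped (0.13, standard error 0.15). In RefSeq Foxc1, Foxf2 and Foxq1 follow each other on chromosome 17 with no other protein-coding gene between them. The 4 probe sets of Foxc1 and Foxq1 all had differences above 0, from 0.11 to 0.31, and none passed. A link between these differences and the place of the genes on the chromosome was not tested.

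Foxc2 was measured by 3 probe sets with differences of -0.35, -0.09 and 0.00, and its groups overlapped at each. The first of these rests on a single array: 1370795_at had log2 signals of 4.31 and 4.43 in Ad-GFP and 3.63 and 4.41 in Ad-atrogin-1, and its difference was 0.04 without Ad-atrogin-1 replicate 1. Foxd3, a repressor that keeps neural crest and pluripotent cells undifferentiated, had log2 signals of 4.63 and 4.79 in Ad-GFP and 4.66 and 4.79 in Ad-atrogin-1. Its log2 difference was 0.01 (95% interval -0.31 to 0.33).

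Over all 20 probe sets, the groups lay apart at 11, of which 6 were higher and 5 lower in Ad-atrogin-1. Among all probe sets this was so at 40.4%, with 18.3% higher and 22.1% lower. Since the genes were chosen with these arrays known, nothing is read from this count. The median log2 difference was -0.01 over the 20 probe sets and -0.01 over all probe sets. Apart from Foxa2, the differences ran from -0.42 to 0.62.

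**Figure D2:**
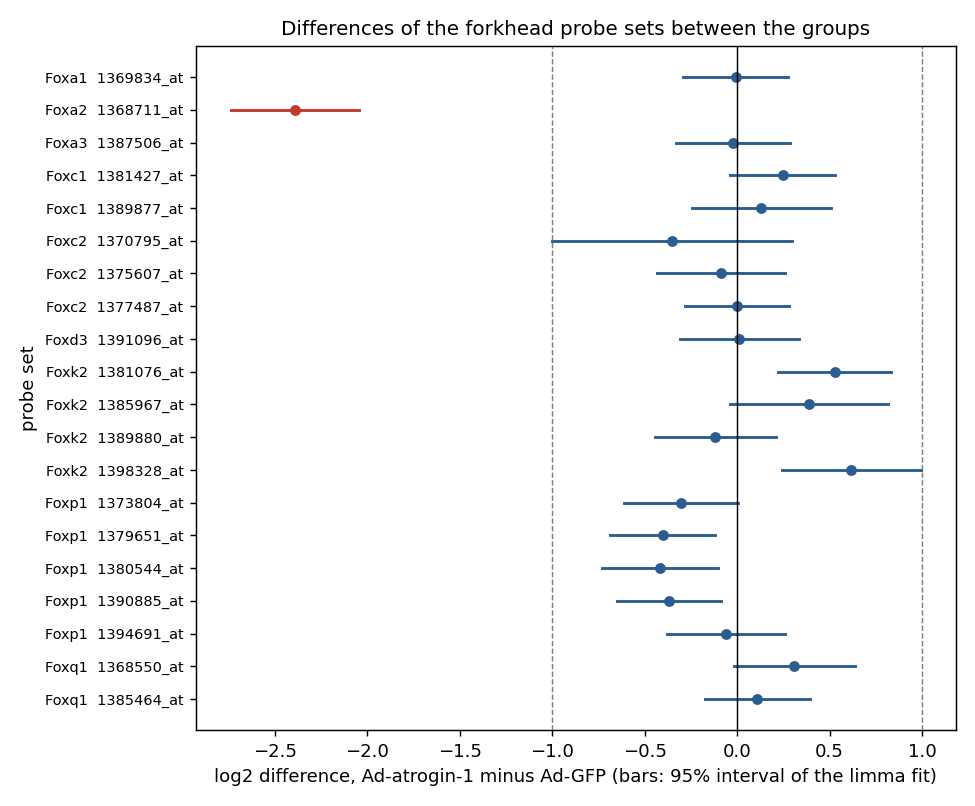
Log2 difference (Ad-atrogin-1 minus Ad-GFP, horizontal axis) of each of the 20 forkhead probe sets (rows), with 95% intervals of the limma fit, the called probe set in red and the others in blue, and dashed lines at a change of 2-fold. Foxa2 lies at -2.39, beyond the dashed line, and the others lie between -0.42 and 0.62.

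The other forkhead genes were taken as a family by their symbols and not by their values. The arrays measured 21 of them, and none passed the thresholds (limma, adjusted over 14217 genes, lowest adjusted p = 0.104), which with 2 arrays per group does not show that they did not change. Of all genes 0.513% were called. At an unadjusted p under 0.05 there were 2 by limma, beside 13.4% of all genes (1898 of 14217). By an equal-variance test there were 3 at that threshold, beside 1339 of 14217 genes. The median log2 difference of the 21 was -0.09, beside -0.003 over all genes. The groups lay apart at 7 of the 21, lower in Ad-atrogin-1 at 6 and higher at 1, and at 43% of all genes, lower at 22.3% and higher at 20.7%. The 6 and the 1 describe the list and were not tested as a set.

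The 2 with an unadjusted p under 0.05 were Foxk1 and Foxm1. Foxk1, the close relative of Foxk2, had log2 signals of 6.72 and 6.92 in Ad-GFP and 6.16 and 5.99 in Ad-atrogin-1. Its log2 difference of -0.74 (standard error 0.14, adjusted p = 0.104, limma) was opposite in sign to the 0.62 of Foxk2, and neither gene passed. Foxm1, a driver of genes of mitosis, had log2 signals of 5.76 and 5.78 in Ad-GFP and 6.35 and 6.36 in Ad-atrogin-1, a log2 difference of 0.58 (standard error 0.11, adjusted p = 0.112, limma).

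The FoxO genes encode the factors that drive atrogin-1 transcription in muscle, and none of the 3 measured passed. The log2 difference was 0.07 for Foxo1 (standard error 0.26), -0.14 for Foxo3 (0.12) and -0.27 for Foxo4 (0.20). The Foxo1 probe sets differed: a second one above the lower quartile, dimmer than the first, had -0.32 (95% interval -0.62 to -0.02) with its groups apart, and the dimmest lay under it. The Foxo4 value rests on a single array, being -0.0011 without Ad-atrogin-1 replicate 2 and -0.54 without Ad-atrogin-1 replicate 1. Foxo1 changed sign between settings, as did the small differences of Foxn2 (-0.09), Foxn3 (-0.15), Foxd4 (0.10) and Foxp2 (0.12). Foxj2, a widely expressed factor, had -0.30 (standard error 0.18). Of the 30 forkhead genes measured, Foxa2 and Foxk1 alone lay outside the central 95% of all genes, which spans -0.58 to 0.66, and Foxa2 was chosen for its difference.

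**Figure D3:**
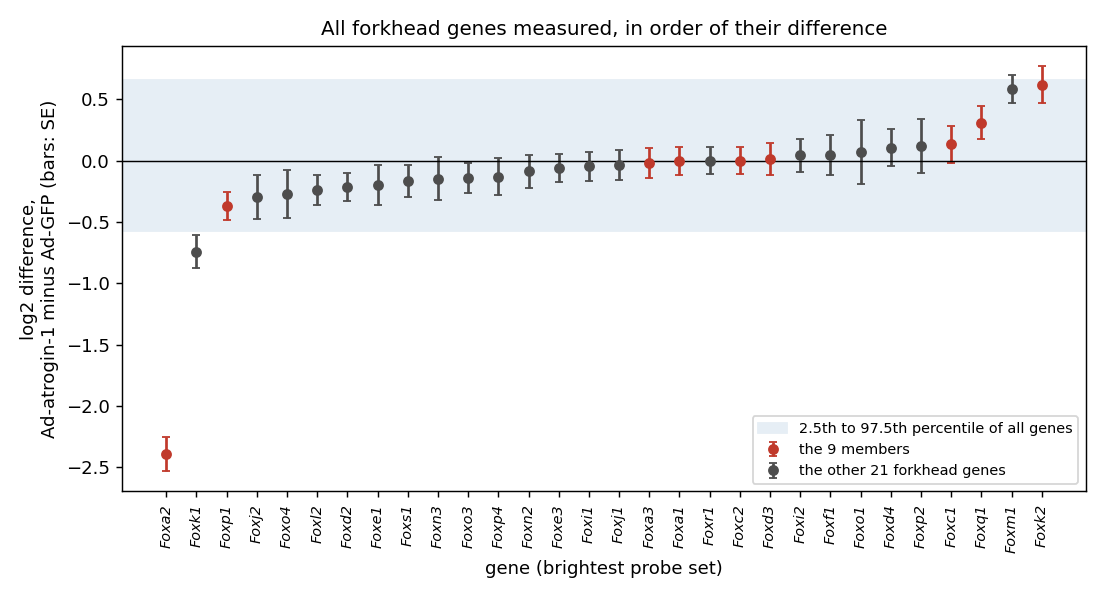
Log2 difference (Ad-atrogin-1 minus Ad-GFP, vertical axis) of the brightest probe set of each of 30 forkhead genes, in order of the difference, with standard errors, the 9 listed genes in red, the other 21 in grey and the central 95% of all genes shaded. Foxa2 at -2.39 and Foxk1 at -0.74 lie under the band, and the other 28 lie within it.

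The genes whose values over the 4 arrays were most like those of Foxa2 were found by the distance between log2 signals centred on the mean of each gene. They were Gprc5a (distance 0.60), Mmp3 (0.97), Ccl20 (0.97), Csf2 (0.98), Ptgs2 (1.05) and Ckmt1 (1.08). Each was lower in Ad-atrogin-1 with no overlap of the groups, and Gprc5a and Ccl20 passed limma. The difference of Foxa2 between the groups itself sets this likeness, and 4 of 14217 genes came within a distance of 1.

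The partners and targets of Foxa factors were examined next, from lists of genes known from endoderm, liver, lung and pancreas. Of 19 measured partners, transcription factors apart from the ligand gene Shh, none passed (lowest adjusted p = 0.211, limma), with 2 at an unadjusted p under 0.05 (13.4% of all genes). Their median log2 difference was -0.11. The groups lay apart at 5 of the 19 with Ad-atrogin-1 higher and at 4 with it lower, beside 20.7% and 22.3% of all genes. Gata4, a zinc finger factor that opens chromatin with Foxa proteins in endoderm and is a core factor of heart muscle, had 0.12 (standard error 0.22). Cebpb, a factor of the acute-phase response, had -0.45 (0.20) and was the lowest of the list. Nr0b2, a nuclear receptor that represses bile acid synthesis, was the highest at 0.85 (standard error 0.22). The 2 partners with an unadjusted p under 0.05 by limma were Nr0b2 and Hnf4a. Hnf4a had 0.33 (standard error 0.11), with its groups apart and its signals under the lower quartile on 3 arrays. The hepatic and gut factors Onecut1, Onecut2, Cdx2, and Shh, lay under the lower quartile on all arrays.

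Of 21 measured Foxa target genes none passed (lowest adjusted p = 0.159, limma), with 1 at an unadjusted p under 0.05 (13.4% of all genes) and a median log2 difference of -0.04. That gene was Hpx, which encodes the heme scavenger hemopexin and had -1.30 (standard error 0.29). The groups lay apart at Hpx and at Abcc8 (-0.22), Apob (-0.29), Tat (-0.22) and Ttr (-0.02), each lower in Ad-atrogin-1. This is 5 of 21, beside 22.3% of all genes. At 0 of 21 the groups lay apart with Ad-atrogin-1 higher, beside 20.7% of all genes. The enzymes of fatty acid oxidation Acadm and Cpt1a had -0.15 (standard error 0.20) and -0.17 (0.20), and Apoa1, an apolipoprotein gene and the highest of the list, 0.15 (0.17). Signals of 9 of the 21, among them Afp, Pck1, Igfbp1, Sftpb, Cdh1 and Tat, lay under the lower quartile on all arrays.

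Genes that Foxa, Foxc, Foxf or Foxp factors act with or upstream of in the developing heart and vessels were taken as a further list. Of 18 measured none passed (lowest adjusted p = 0.0644, limma), with 3 at an unadjusted p under 0.05 (13.4% of all genes) and a median log2 difference of 0.10. The lowest was Itgb3, an integrin gene of vessel growth that Foxc2 activates, at -0.77 (standard error 0.11, adjusted p = 0.0644). The highest was Hand2, a factor of the right ventricle, at 0.81 (standard error 0.20, adjusted p = 0.200). Nkx2-5, the cardiac homeobox factor whose level Foxp1 influences, had 0.02 (standard error 0.13), and Sox4, a factor of outflow tract growth, 0.09 (0.12). The groups lay apart at 3 of the 18 with Ad-atrogin-1 higher and at 2 with it lower, beside 20.7% and 22.3% of all genes.

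**Figure D4:**
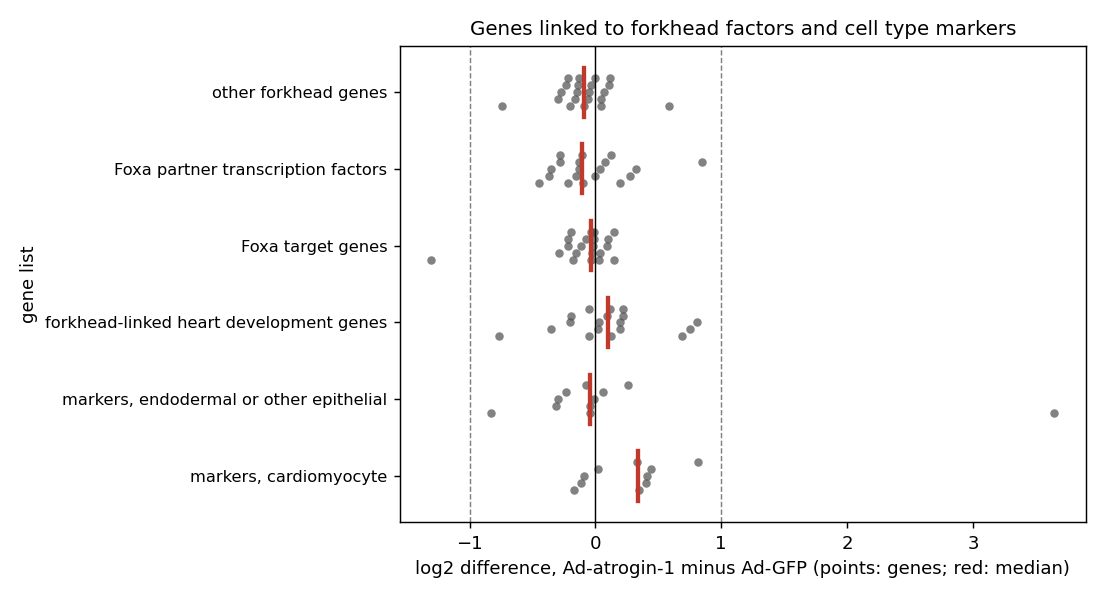
Log2 difference (Ad-atrogin-1 minus Ad-GFP, horizontal axis) of each measured gene (points) of 4 lists linked to forkhead factors and of epithelial and cardiomyocyte markers, with list medians in red and dashed lines at a change of 2-fold. Medians lie between -0.11 and 0.34, and Hpx at -1.30 and Krt19 at 3.65 are the points beyond the dashed lines.

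Markers of the labelled cell type were present on the arrays, beside those of other cell types. All 10 cardiomyocyte markers lay above the lower quartile on every array. The sum of their linear signals was 30046 and 31999 in Ad-GFP and 37812 and 30103 in Ad-atrogin-1. Their median log2 difference was 0.34, beside -0.003 over all genes. The groups lay apart at 4 of the 10 with Ad-atrogin-1 higher and at 0 with it lower, beside 20.7% and 22.3% of all genes. The 9 fibroblast, 5 smooth muscle and 7 endothelial markers measured also lay above the lower quartile on every array. The sum of the fibroblast markers was 10492 and 13700 in Ad-GFP and 13419 and 12729 in Ad-atrogin-1. The sum of the endothelial markers was 527 and 721 in Ad-GFP and 531 and 947 in Ad-atrogin-1. That of 6 macrophage markers was 297 and 323 in Ad-GFP and 470 and 205 in Ad-atrogin-1. The 2 Ad-atrogin-1 arrays thus differed in these sums. The share of each kind of cell was not measured. Fbxo32, the gene of atrogin-1, had log2 signals of 5.24 and 5.04 in Ad-GFP and 13.55 and 13.47 in Ad-atrogin-1, and viral RNA and RNA of the rat gene were not told apart. None of 57 marker genes of 8 cell types passed limma, with 7 at an unadjusted p under 0.05, beside 13.4% of all genes.

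Foxa2 is a gene of epithelia, so the markers of endodermal or other epithelia and of mesothelium, the epithelium on the surface of the heart, were set beside it. Of 12 markers 11 were measured, and Epcam, Cdh1 and Cldn4 lay under the lower quartile on all arrays. The sum of the linear signals was 419 and 370 in Ad-GFP and 488 and 587 in Ad-atrogin-1. The keratin gene Krt19 alone carried this rise, with linear signals of 9.19 and 44.7 in Ad-GFP and 237 and 272 in Ad-atrogin-1. Without Krt19, left out after its values were seen, the sum was 410.2 and 325 in Ad-GFP and 251 and 315 in Ad-atrogin-1. Nothing is read from this sum, since the marker left out was chosen by its values. Krt18 entered it with log2 signals of 7.47 and 6.58 in Ad-GFP and 6.06 and 6.33 in Ad-atrogin-1. Krt19 had a log2 difference of 3.65 (standard error 0.69, adjusted p = 0.107, limma) and Krt18 -0.83 (0.30), and Cldn3, a tight junction gene, -0.30 (0.22). The median of the list was -0.04, and the groups lay apart at 2 of the 11 markers with Ad-atrogin-1 higher and at 3 with it lower, beside 20.7% and 22.3% of all genes. Of 7 mesothelial markers 6 were measured, none under the lower quartile on all arrays, with a median log2 difference of -0.11. Their summed signal was 413 and 384 in Ad-GFP and 374 and 352 in Ad-atrogin-1. Their groups lay apart at 1 marker with Ad-atrogin-1 higher (Upk1b, 0.39, standard error 0.12) and at 2 with it lower (Lrrn4, -0.61, standard error 0.15, and Aldh1a2, -0.26, standard error 0.13), and none passed limma. The part of either kind of cell in the Foxa2 difference was not tested.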

How the data were processed

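The deposited values are log2 signals per probe set of an Affymetrix rat array, which the authors computed from the scans by robust multi-array average (RMA) with GeneSpring GX. No genome build is given in the sources used here. The 57 controls of the array were dropped, and the other 31042 probe sets entered the fit, dim ones included. The array medians were 5.51 to 5.52, and the number of arrays limits the precision. A table of the array's annotation gave a single gene for 20826 probe sets, several for 436 and no gene for 9780, and the single ones were checked against RefSeq gene IDs, which changed no symbol.

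A linear model without a block was fitted by lmFit and eBayes of limma 3.58.1 (R 4.3.3), tests were two-sided, and p was adjusted by Benjamini-Hochberg over all probe sets. Each gene was represented by its brightest probe set on average, with p adjusted over 14217 genes. Thresholds are those of the methods. An exact permutation test of 2 arrays against 2 cannot give a p under 0.333, so none was used. The methods do not name their test of group means, and the equal-variance test here, the methods' t-test, is 1 reading of them.

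The members, the lists and the rule for named genes were chosen with earlier results of these data known. The rule names all members, Fbxo32, of the other forkhead genes those called, the FoxO genes, the 3 with the largest and smallest difference and the 3 brightest, of each other list those called, the 2 brightest and both extremes, and the 6 genes most like Foxa2. Of the marker lists it was applied to the epithelial list alone, and mesothelial markers and genes named for dim signals or for groups that lay apart were added after their values were seen. Alternatives tried were another scaling, filter, prior, test, fold threshold or block, averaged probe sets and each array left out. The fit was tested on simulated data. Figures were drawn with matplotlib 3.10.9.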

Additional observations from a re-analysis of the deposited data

How the results depend on the processing

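Other settings numbered 14 for the gene counts, 13 for the Foxa2 difference and 12 or 13 for single member probe sets. Centring arrays on their medians, a further quantile normalization, an intensity trend or robust prior, 1.5-fold and no fold threshold kept Foxa2 as the 1 called member probe set, and Foxa2 also passed with averaged probe sets. The filter to the upper 60% of probe sets removed it, since its mean signal of 4.79 lies under the limit of 4.85. Of the 10 member probe sets left, 0 were called. The methods' t-test called 0 member probe sets, 0 genes and 0 probe sets, and the Foxa2 difference was -2.39. At an unadjusted p under 0.05 it gave 5 member probe sets, 1339 genes and 2598 probe sets. With the replicate block 0 member probe sets, 1 gene and 1 probe set were called, against 73 genes and 85 probe sets without it. Foxa2 had -2.39 with the block. Deviations of arrays with the same replicate number from their group means correlated at 0.043 over all probe sets. With 2 arrays per group both pairs give this same value by construction. It cannot show whether arrays with the same number share a preparation. Without any 1 array Foxa2 did not pass, and its difference was -2.52 to -2.27. Fewer residual degrees of freedom are left in these fits. No gene of the 4 linked lists or of the markers was called under any setting run.

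The sign turned for Foxo1 with averaged probe sets (-0.088) and for Nkx2-5 after quantile normalization (-0.019). With 1 array left out, differences ranged from -0.31 to 0.45 for Foxo1, -0.15 to 0.39 for Foxp2, -0.059 to 0.27 for Foxd4, -0.35 to 0.052 for Foxn3, -0.21 to 0.029 for Foxn2, -0.20 to 0.44 for Gata4, -0.42 to 0.12 for Acadm, -0.45 to 0.10 for Cpt1a, -0.063 to 0.37 for Apoa1, -0.076 to 0.12 for Nkx2-5 and -0.61 to 0.011 for Cldn3. Without a turn of sign they ranged from -0.54 to -0.0011 for Foxo4, -0.53 to -0.062 for Foxj2, -0.73 to -0.17 for Cebpb, 0.53 to 1.16 for Nr0b2, 0.49 to 1.09 for Hand2 and -1.28 to -0.38 for Krt18. The Hand2 value of 0.49, with Ad-atrogin-1 replicate 1 left out, came from another probe set than the one described. Leaving an array out can change which probe set is brightest. The described Hand2 probe set ranged from 0.52 to 1.09 in the other fits of this kind. Among members, Foxa1 (0.013) and Foxa3 (0.0071) also turned after quantile normalization, and with 1 array left out Foxa1, Foxa3, Foxd3, every Foxc2 probe set and the dim Foxp1 probe set took both signs, all but the dimmest Foxc2 probe set within -0.22 to 0.094. The cause was not tested. The bright Foxk2 and Foxp1 probe sets kept their signs under all settings run, at 0.17 to 0.75 and -0.50 to -0.22.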
